A study of Mus musculus with 13 samples.

Results

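Retinoid storage and metabolism was examined through 9 genes, chosen by symbol: Lrat, Rbp4, Stra6l, Cyp26a1, Cyp26b1, Aldh1a1, Rdh10, Rdh11 and Bco1. Each was read from the brightest probe set that the platform annotation gives to that gene alone, and all 9 of 9 were measured among the 19938 named genes on the arrays. The livers came from 13 male wild-type C57BL/6N mice, each hybridised to its own Affymetrix mouse gene array. The 6 STZ mice had been given 65 mg/kg streptozotocin intraperitoneally on each of 5 days at an age of 10 to 16 weeks. Streptozotocin (STZ) is an alkylating glucose analogue that kills pancreatic beta cells and so makes mice insulin-deficient. The 7 control mice had mock injections of citrate buffer, and both groups were killed 9 to 11 weeks later, at 5 to 6 months. The sources used here give neither blood glucose nor vitamin A status of the animals, and the series design text describes the controls by their diet alone. Values are log2 intensities after robust multi-array average (RMA), a difference of 1 being a doubling of signal, and differences are STZ minus control ± the standard error of the fit. An adjusted p is that of limma with the Benjamini-Hochberg adjustment over all 19938 genes, called at 0.05.

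The liver holds most of the vitamin A of the body, as retinyl esters in the lipid droplets of hepatic stellate cells. LRAT makes those esters from retinol, hydrolases release the retinol again, and hepatocytes export it bound to the carrier RBP4. Inside cells retinol is oxidised to retinaldehyde by retinol dehydrogenases and then to retinoic acid by retinaldehyde dehydrogenases. Retinoic acid acts on genes through the RAR and RXR nuclear receptors and is cleared by the CYP26 hydroxylases.

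In STZ livers the esterifying enzyme gene Lrat and the retinal reductase gene Rdh11 were lower, and the retinoic acid hydroxylase gene Cyp26a1 was higher. Lrat signal was 1.38-fold and Rdh11 signal 1.86-fold lower, while that of Cyp26a1 was 2.39-fold higher. These 3 of 9 genes passed in limma, 1 higher and 2 lower, where 9.12% of all named genes passed (5.09% higher and 4.04% lower). The median difference of the 9 genes was 0.03 on the log2 scale, against -0.01 for all genes. The other 6 genes, among them the carrier Rbp4, did not pass. The 3 calls describe these genes and are not a test of the pathway.

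The promoters of Cyp26a1 and Lrat are shown because both genes are known to be induced by retinoic acid and they moved in opposite directions here. Each line gives the 250 bases before the transcription start in RefSeq (build GRCm38.p6), read 5′ to 3′ on the strand of the gene. Capitals mark the half-sites of a direct repeat with 5 bases between them, the form of element that RAR and RXR bind.
Cyp26a1, chr19:37697558-37697807, plus strand: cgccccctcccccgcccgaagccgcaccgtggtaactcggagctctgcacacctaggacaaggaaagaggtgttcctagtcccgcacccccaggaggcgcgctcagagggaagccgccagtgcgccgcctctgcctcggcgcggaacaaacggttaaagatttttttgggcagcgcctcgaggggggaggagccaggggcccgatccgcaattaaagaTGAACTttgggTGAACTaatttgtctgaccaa
Lrat, chr3:82903975-82904224, minus strand: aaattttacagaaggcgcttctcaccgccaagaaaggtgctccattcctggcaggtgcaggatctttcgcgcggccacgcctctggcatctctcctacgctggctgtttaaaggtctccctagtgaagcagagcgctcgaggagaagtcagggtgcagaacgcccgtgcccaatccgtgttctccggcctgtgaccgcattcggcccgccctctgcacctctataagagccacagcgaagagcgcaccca
The search allowed the half-site AGGTCA, or AGTTCA, or either of them with G as its first base, in any pairing and on both strands. The Cyp26a1 repeat reads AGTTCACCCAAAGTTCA on the opposite strand and lies 32 to 16 bases before the start. Such a repeat was found in 29 of 32851 RefSeq promoter windows of the same length (0.0883%). It was found in 1 of the 12 windows of the 8 listed members. The same half-sites with 2 bases between them were in 0 of those 12 windows and in 0.174% of all windows. A match is a description of the letters, and no match says only that these letters are not in this window.

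Storage came first. Lrat, the enzyme that links retinol to a fatty acid for storage, read 8.73, 8.53, 8.96, 8.72, 8.91 and 8.48 in STZ replicates 1 to 6. In control replicates 1 to 7 it read 9.10, 9.07, 9.16, 9.39, 9.18, 9.28 and 9.15. All 6 STZ livers lay below the lowest control, so the groups did not overlap, which held for 3.86% of all named genes. Lrat averaged 8.72 ± 0.19 (SD, n = 6) in STZ livers and 9.19 ± 0.11 (SD, n = 7) in controls. The difference was -0.47 ± 0.08 (95% interval -0.64 to -0.30), with an adjusted p of 0.00138 in limma. The exact two-sided permutation test over all 1716 splits of the arrays gave p = 0.000583, the smallest it can give.

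**Figure D1:**
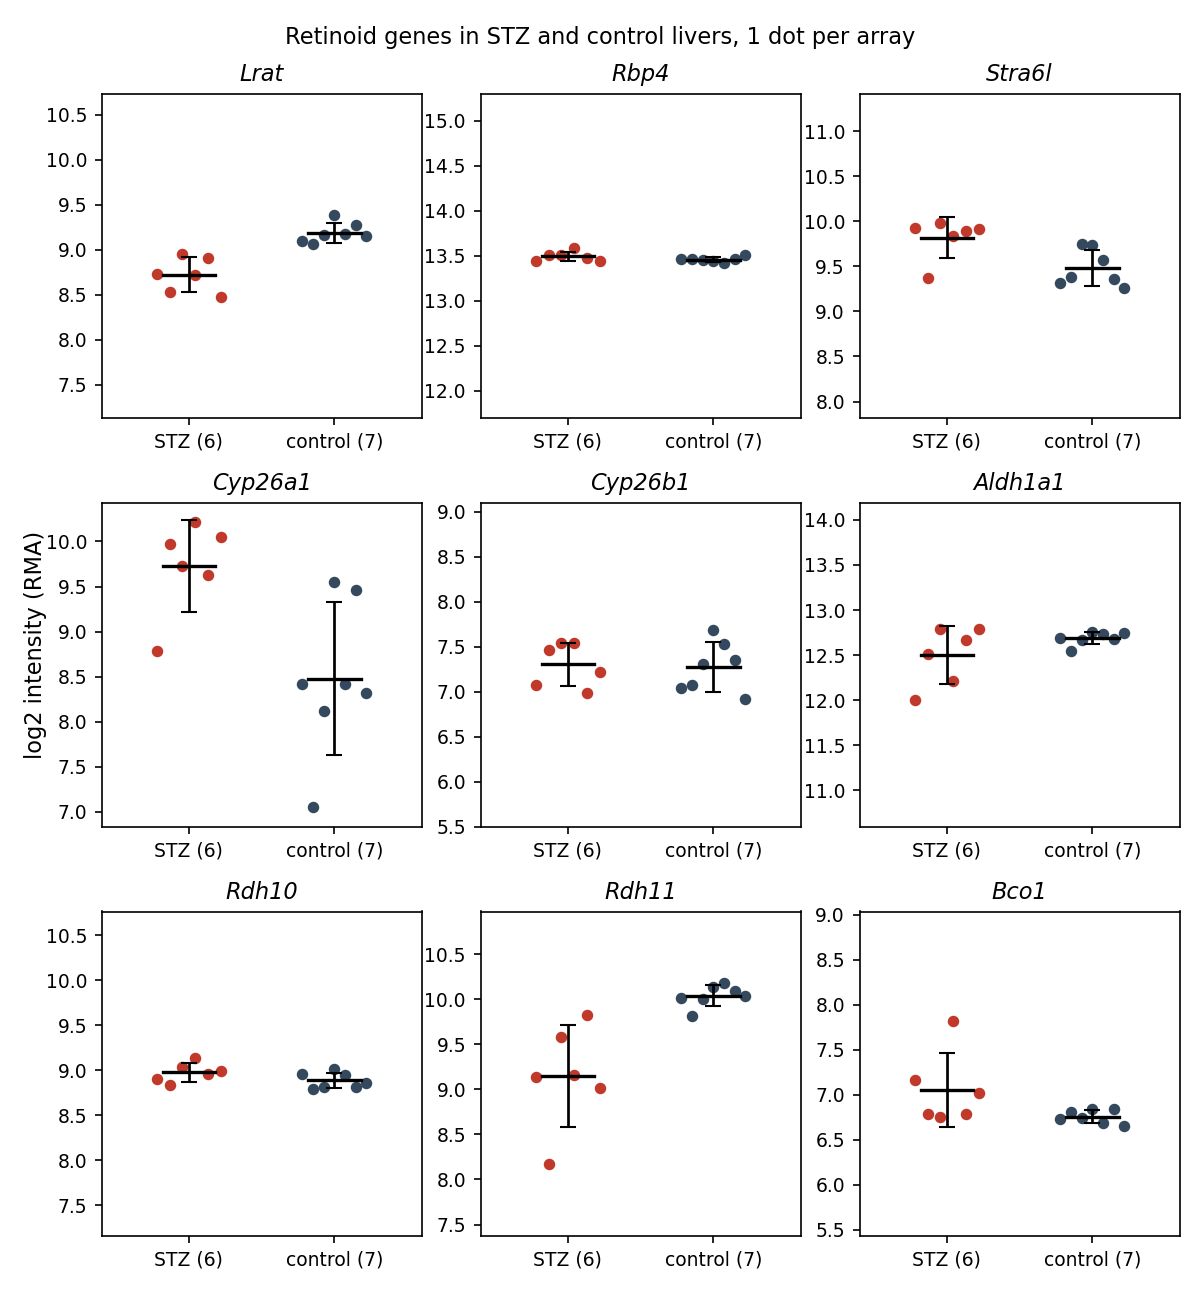
Log2 RMA intensity of the 9 retinoid genes, 1 dot per liver, with STZ (6 arrays) left of control (7 arrays) and bars for mean ± SD; the vertical scales span the same number of log2 units in every panel. All 6 STZ dots of Lrat lie below the controls, 5 of 6 for Rdh11, and 5 of 6 of Cyp26a1 lie above them.

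Lrat is also the defining marker of hepatic stellate cells, so it was set beside 18 other genes of quiescent stellate cells. Of these 18 markers 4 were higher in STZ livers and 0 lower in limma, beside 5.09% and 4.04% of all named genes. The median difference of the 18 was 0.11. The higher ones were the growth factor Hgf (0.38 ± 0.07), the matrix proteoglycan Dcn (0.35 ± 0.06), the pericyte regulator Rgs5 (0.46 ± 0.11) and the receptor Pdgfra (0.25 ± 0.07). Reln (-0.11 ± 0.06) and Ngfr (-0.13 ± 0.06), which also mark these cells, did not pass. The mean log2 value of the 18 markers was 7.97 to 8.18 in STZ livers and 7.88 to 7.97 in control livers, above all controls in 5 of 6 STZ arrays. Within each array, Lrat minus this mean was 0.44 to 0.95 in STZ livers and 1.10 to 1.47 in control livers, with no overlap. Lrat alone already did not overlap, and the marker mean was not lower in STZ livers. This lack of overlap is therefore no separate result and does not test the number of stellate cells. In whole liver, fewer cells of a type and less RNA per cell cannot be told apart.

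**Figure D2:**
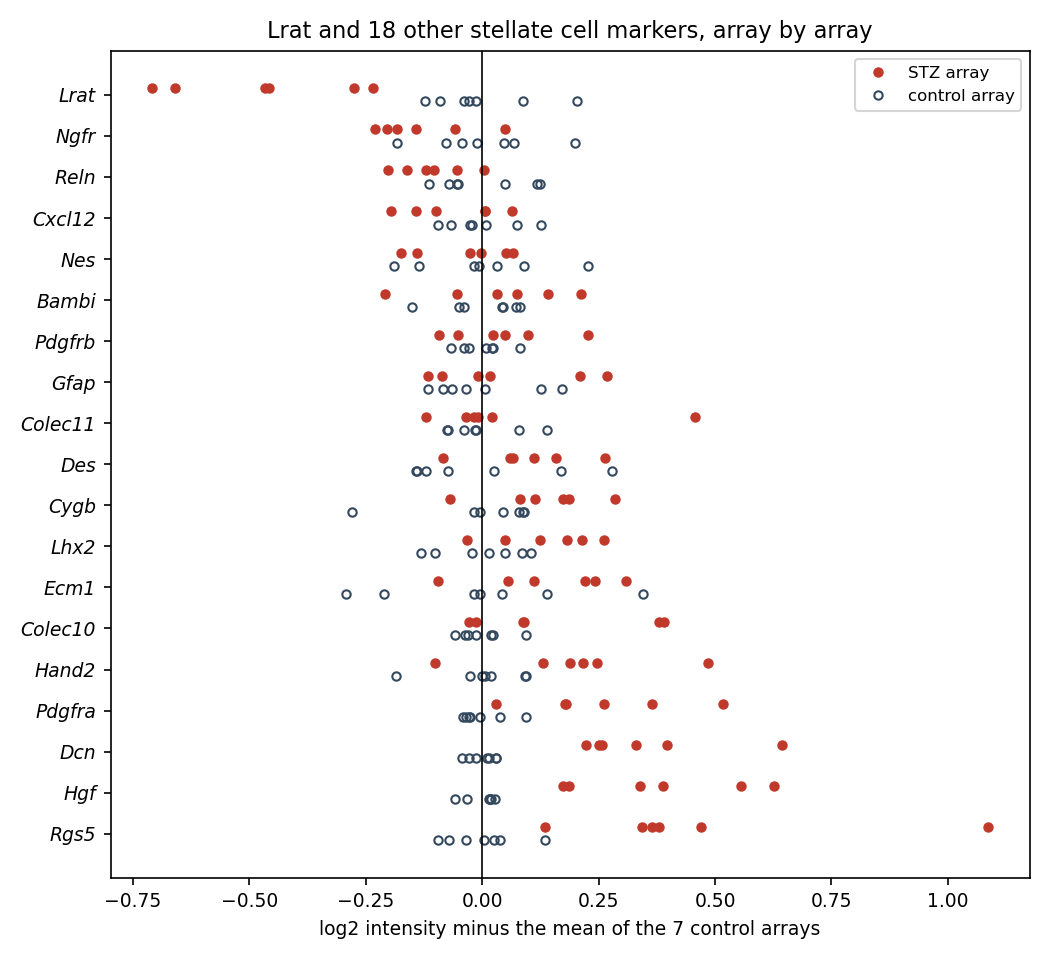
Log2 intensity of Lrat (top row) and 18 other quiescent stellate cell markers, each array minus the mean of the 7 controls; filled red points are STZ arrays and open points control arrays. Lrat is the row whose 6 STZ points all lie left of every control, while those of Dcn and Hgf all lie to the right.

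For the lists that follow, limma called 5.09% of all named genes higher and 4.04% lower. Genes of activated stellate cells were higher for 2 of 11 and lower for 0. These were Lum (0.86 ± 0.13), a matrix proteoglycan, and the protease inhibitor Timp1 (0.34 ± 0.08). Timp1 read 5.05 to 5.54 in STZ livers and 4.82 to 5.21 in control livers, so the groups overlapped. Those values lie below the array medians of 6.22 to 6.31, and Timp1 did not pass in the exact rank-sum test (adjusted p = 0.0874). The collagen genes Col1a1 (-0.03 ± 0.06) and Col3a1 (0.05 ± 0.07) did not pass. The mean of that list was 7.35 to 7.64 in STZ livers and 7.21 to 7.46 in control livers. Kupffer cell markers were higher for 4 of 8, with Cd5l the largest (0.62 ± 0.15) and list means of 8.64 to 9.28 in STZ livers against 8.49 to 8.91 in control livers. Hepatocyte markers were higher for 1 and lower for 2 of 9, and Alb (-0.03 ± 0.04) did not pass. Alb read 13.64 to 13.68 in control livers, close to the highest value on the arrays (14.1), where differences in RNA can be compressed. For endothelial markers 1 of 9 was higher (Lyve1, 0.50 ± 0.11), and for bile duct and pancreatic markers 0 of 4 passed each. In the exact rank-sum test 0 of 8 Kupffer markers and 0 of 9 endothelial markers passed, where 5.46% of all genes did. The adipocyte list had 1 of 4 lower, Retn (-0.42 ± 0.08), and the red cell list 1 of 2 lower, the heme synthesis gene Alas2 (-1.58 ± 0.26). In the adipocyte and red cell lists the lower call was thus that of 1 gene each. The part of these cell type markers in the differences of the retinoid genes was not tested.

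The plasma carrier of retinol did not follow Lrat. Rbp4, the hepatocyte protein that takes retinol into the blood, ranged from 13.44 to 13.59 with a median of 13.49 in STZ livers and from 13.42 to 13.51 with a median of 13.46 in controls. Its difference was 0.03 ± 0.04 (adjusted p = 0.745 in limma), and the 95% interval of -0.06 to 0.12 holds no change beyond 1.09-fold in signal. Its values lie close to the highest on the arrays (14.1), where differences in RNA can be compressed. Ttr, which carries RBP4 in plasma, was lower by a small margin (-0.18 ± 0.05, adjusted p = 0.0402 in limma) but passed in only 8 of 23 alternatives. Its groups did not overlap, which held for 3.86% of all named genes. With medians of 13.30 in STZ livers and 13.48 in control livers, Ttr also lies close to the highest values, so its difference can be compressed too.

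Stra6l, also known as Rbpr2, encodes a receptor for RBP4 that takes up retinol in liver and gut of the mouse. It read 9.92, 9.37, 9.99, 9.83, 9.90 and 9.92 in STZ livers and 9.32, 9.39, 9.75, 9.74, 9.57, 9.37 and 9.26 in control livers. STZ replicate 2 lay within the control range, and the other 5 STZ livers lay above every control. The difference of 0.34 ± 0.11 had an adjusted p of 0.0559 in limma and did not pass. Without STZ replicate 2 it was 0.43 with an adjusted p of 0.00585, and it also passed without control replicate 3 (0.0331) or 4 (0.0370).

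Bco1 cleaves beta-carotene to retinaldehyde and is the entry of provitamin A. It read 7.16, 6.79, 6.75, 7.82, 6.78 and 7.01 in STZ livers, against 6.65 to 6.84 in the 7 controls. STZ replicates 1, 4 and 6 lay above all controls and the other STZ livers among them. The difference was 0.30 ± 0.13, with an unadjusted p of 0.0421 and an adjusted p of 0.215 in limma. It fell to 0.14 when STZ replicate 4 was left out.

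In the oxidation of retinol the members differed. Rdh10, the dehydrogenase that supplies most retinaldehyde for retinoic acid in the mouse embryo, was 8.83 to 9.13 in STZ livers and 8.79 to 9.02 in control livers. Its difference was 0.09 ± 0.06 (95% interval -0.03 to 0.21), with an adjusted p of 0.427 in limma. Rdh11, a microsomal enzyme that can reduce retinaldehyde back to retinol, read 9.14, 8.18, 9.58, 9.16, 9.83 and 9.01 in STZ livers. The controls read 10.02, 9.82, 10.00, 10.14, 10.18, 10.10 and 10.03. STZ replicate 5 reached the lowest control, and the other 5 lay below all of them. The mean was 9.15 ± 0.57 (SD, n = 6) in STZ livers and 10.04 ± 0.12 (SD, n = 7) in control livers, so the STZ livers also spread more widely. The difference was -0.89 ± 0.18 (95% interval -1.28 to -0.50), with an adjusted p of 0.00518 in limma and an exact permutation p of 0.00117. It was -0.70 without STZ replicate 2, the lowest array, and -1.03 without STZ replicate 5.

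Aldh1a1, the main retinaldehyde dehydrogenase of adult liver, read 12.00, 12.51, 12.79, 12.22, 12.67 and 12.78 in STZ livers and 12.55 to 12.76 in the 7 controls. STZ replicates 1, 2 and 4 lay below every control, and 2 of the other STZ livers lay above. The difference was -0.19 ± 0.11 and did not pass (adjusted p = 0.347 in limma). Aldh1a7 is a close paralog, the next protein-coding gene on chromosome 19, and its probes may share signal. It too was 11.07 to 11.13 in STZ replicates 1, 2 and 4, the lowest values of all arrays, with a difference of -0.18 ± 0.12.

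The largest difference among the members was in the signal of 1 gene of retinoic acid clearance, a process that was not itself measured. Cyp26a1, the liver enzyme that hydroxylates retinoic acid, read 8.79, 9.97, 9.73, 10.21, 9.62 and 10.05 in STZ livers. It read 8.41, 7.05, 8.12, 9.55, 8.42, 9.46 and 8.31 in the controls. STZ replicate 1 lay within the control range, and the other 5 STZ livers lay above the highest control. The mean was 9.73 ± 0.51 (SD, n = 6) in STZ livers and 8.48 ± 0.85 (SD, n = 7) in controls. The difference was 1.26 ± 0.33 (95% interval 0.56 to 1.95), with an adjusted p of 0.0227 in limma and an exact two-sided permutation p of 0.0105. The call is close to the threshold: 0.0758 in limma with trend and robust variance, 0.0592 without STZ replicate 4 and 0.0524 without STZ replicate 6. Without control replicate 2, the lowest array, the difference was 1.02 and passed. Its paralog Cyp26b1 ranged from 6.98 to 7.54 in STZ livers and from 6.92 to 7.68 in controls. That difference was 0.03 ± 0.13 (95% interval -0.24 to 0.30), so a rise as large as that of Cyp26a1 lies outside the interval. Cyp26c1, which is the protein-coding neighbour of Cyp26a1 on chromosome 19, was -0.07 ± 0.08. It read 5.82 to 6.39 in STZ livers and 6.04 to 6.37 in control livers, near the array medians of 6.22 to 6.31, so its expression is uncertain. Rbp4 lies on the same chromosome with 3 protein-coding genes between it and Cyp26a1.

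**Figure D3:**
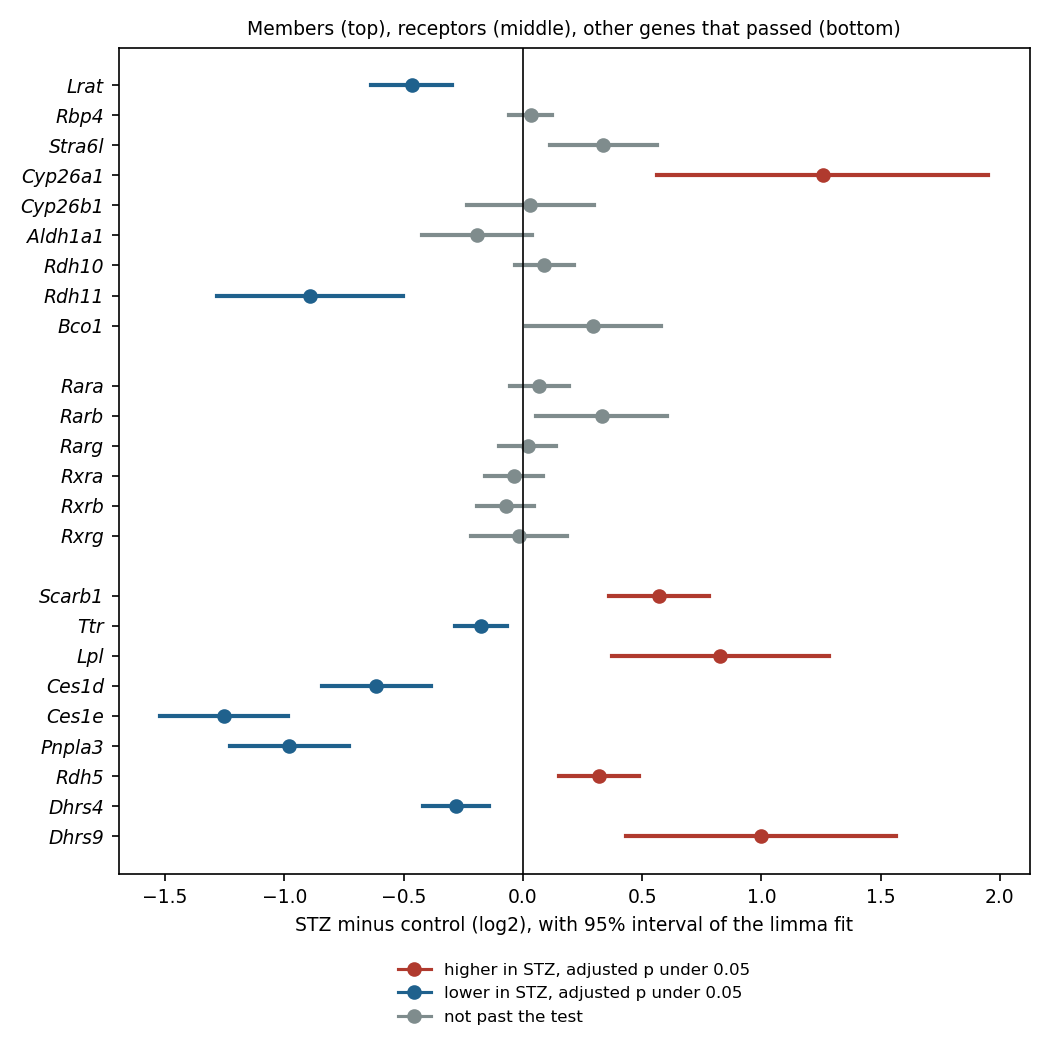
Difference (log2, STZ minus control) with the 95% interval of the limma fit, for the 9 members, 6 receptors and the 9 other retinoid pathway genes that passed. Cyp26a1 (1.26) is right of zero, Lrat (-0.47) and Rdh11 (-0.89) left of it, and all 6 receptors are grey, that is, not past the test.

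Of the nuclear receptors that carry the retinoic acid signal, 0 of 6 passed in limma and 0 in the exact rank-sum test (which called 5.46% of all genes), with 1 at an unadjusted p under 0.05. That was Rarb, itself a retinoic acid-induced gene (0.33 ± 0.13, adjusted p = 0.141). The liver's main partner receptor Rxra was -0.04 ± 0.06. Over all named genes, limma called 5.09% higher and 4.04% lower. Among 11 measured genes known to be induced by retinoic acid, 3 were higher and 2 lower in limma, with a median of 0.05. Cyp26a1 and Lrat are included in these counts. Besides those members, transglutaminase Tgm2 (0.51 ± 0.12) and chemerin, Rarres2 (0.20 ± 0.05), rose, and Rarres1 (-1.73 ± 0.32), named for its induction by a retinoid in human skin cells, fell. Rarres1 read 6.28, 7.51, 8.20, 7.46, 9.25 and 8.03 in STZ livers and 9.22 to 9.80 in control livers. Genes of this list therefore went both ways, as Cyp26a1 and Lrat did.

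The wider retinoid pathway was described with 39 further measured genes of uptake, hydrolysis, oxidation and binding, of which 4 were higher and 5 lower, with a median difference of 0.01. These 9 of 39 stand beside 9.12% of all genes. Several of them also handle other lipids. In uptake, the scavenger receptor Scarb1, which takes up carotenoids and cholesterol esters, was higher (0.57 ± 0.10) and so was lipoprotein lipase Lpl (0.83 ± 0.21). Scarb1 was 10.30 to 11.11 in STZ livers and 10.00 to 10.26 in control livers. Lpl lost its call in 6 of 23 alternatives.

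Some hydrolases reported to release retinol from retinyl esters were lower, like Lrat. The carboxylesterases Ces1e (-1.25 ± 0.13, adjusted p = 1.32e-05 in limma) and Ces1d (-0.61 ± 0.11) and the lipid droplet hydrolase Pnpla3 (-0.98 ± 0.12), a retinyl esterase in human stellate cells, fell. In all 3 the groups did not overlap, as in Scarb1, Ttr and Dhrs4. Such separation held for 6 of the 39 pathway genes and for 3.86% of all named genes. Pnpla3 was 6.63 to 7.00 in STZ livers and 7.33 to 8.16 in control livers. The neutral lipases Lipe (-0.29 ± 0.09, adjusted p = 0.0565) and Pnpla2 (0.32 ± 0.11, adjusted p = 0.0845) did not pass in limma, nor did the carboxylesterase Ces1g (0.09 ± 0.09). Dgat1, which can also esterify retinol, was 0.16 ± 0.05 with an adjusted p of 0.0638. Carboxylesterases form a family of close paralogs, so single members are uncertain.

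Among other oxidoreductases of retinol and retinaldehyde, Dhrs9 (1.00 ± 0.27) and Rdh5 (0.32 ± 0.08) were higher and Dhrs4 (-0.28 ± 0.07) was lower. Dhrs9 was 6.71 to 8.47 in STZ livers and 6.15 to 7.74 in control livers, so the groups overlapped, and it lost its call in 9 of 23 alternatives. Alcohol dehydrogenase Adh1 (0.03 ± 0.04) and the retinaldehyde reductase Dhrs3 (0.05 ± 0.12) did not pass. Adh1 read 13.38 to 13.47 in control livers, close to the highest value on the arrays (14.1), where differences in RNA can be compressed. Rdh12, the neighbour of Rdh11 on chromosome 12, was -0.04 ± 0.06. It read 4.27 to 4.56 in STZ livers and 4.28 to 4.57 in control livers, below the array medians of 6.22 to 6.31. Its expression in these livers is therefore uncertain. Of the binding proteins, Crabp1 (-0.12 ± 0.10) and Rbp7 (0.07 ± 0.07) did not pass, and Rbp7 also read below the array medians.

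**Figure D4:**
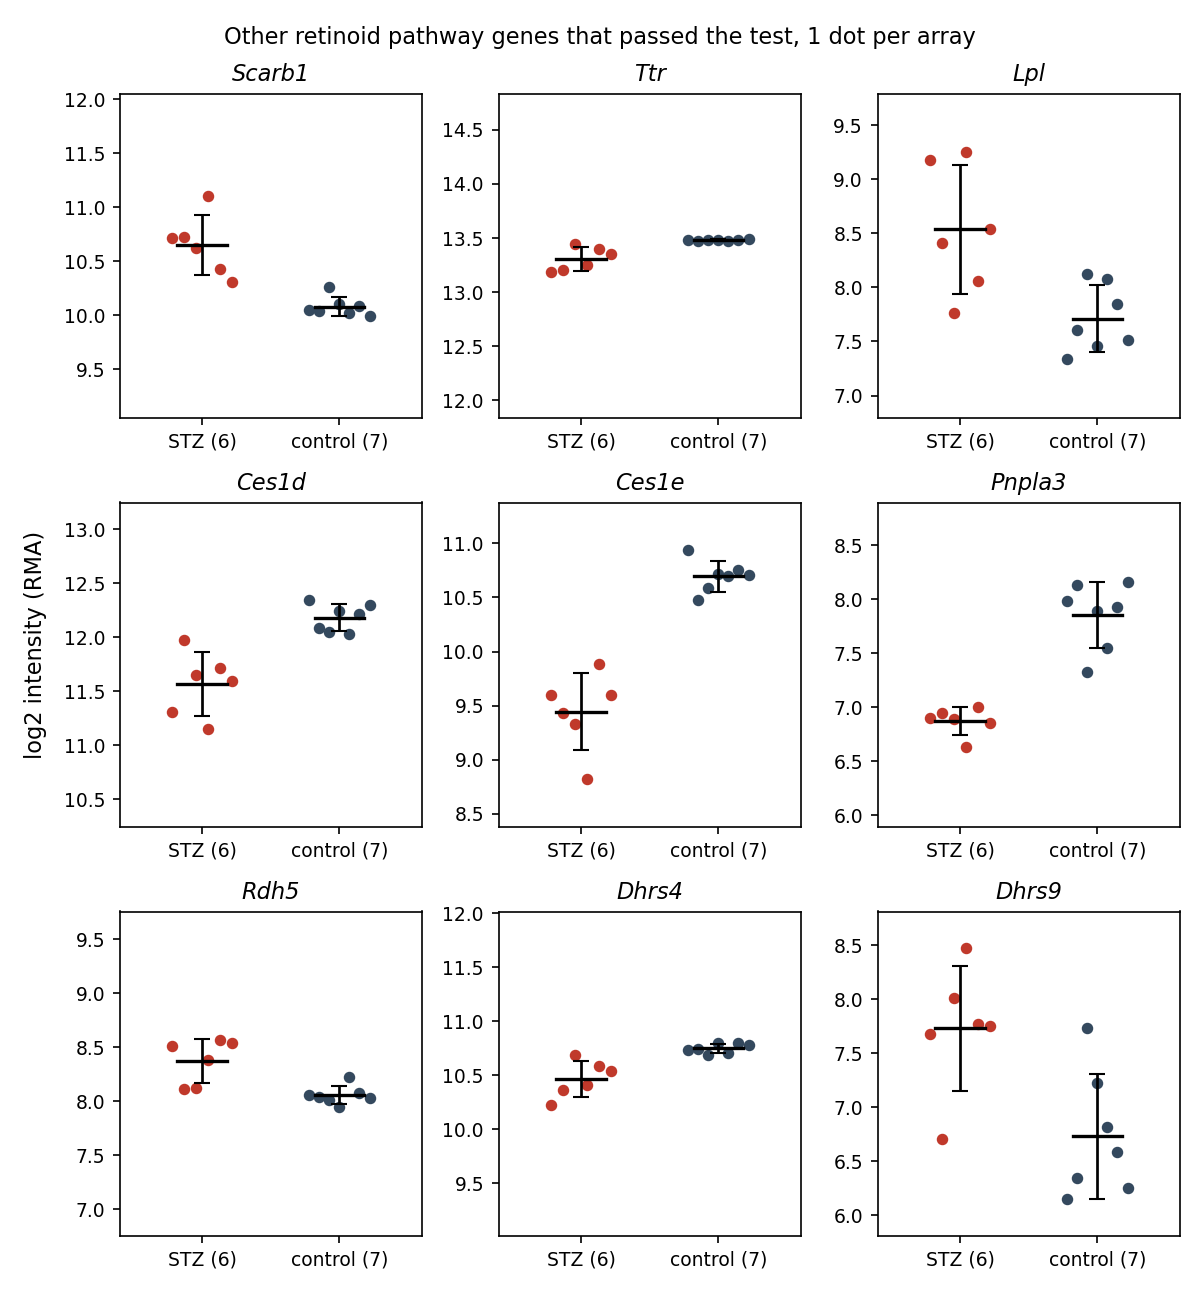
Log2 RMA intensity of the 9 other retinoid pathway genes that passed in limma, 1 dot per liver, STZ left of control, with mean ± SD and the same span of log2 units in every panel. Every STZ dot lies below every control dot for Ces1d, Ces1e, Pnpla3, Ttr and Dhrs4, and above every control dot for Scarb1.

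Likeness between genes across the arrays was measured after removing each group's mean. Over the 13 arrays, the 3 genes of 18619 whose pattern was most like that of Lrat were Tex12 (Pearson r = 0.89), Cdcp1 (0.87) and Olfr805 (0.86). These are the highest of many coefficients on the same arrays and share their normalization, and none of the 3 genes passed the test between groups. Tex12 (4.27 to 5.03) and Olfr805 (3.91 to 4.21) read below the array medians of 6.22 to 6.31. Without detection calls, expression of both in these livers is uncertain.

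**Figure D5:**
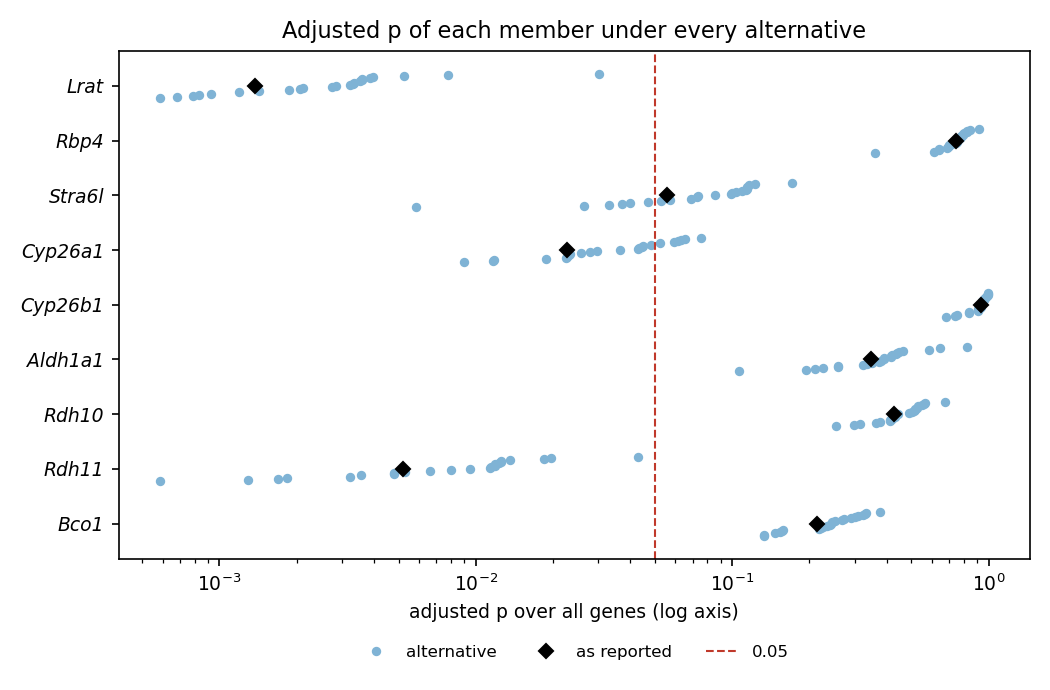
Adjusted p over all genes, on a log axis, for each member as reported (diamond) and in each of 23 alternatives (dots), with the threshold of 0.05 dashed. Lrat and Rdh11 stay left of the line in 23 of 23, Cyp26a1 in 17 and Stra6l in 6, and the other 5 members stay right of it throughout.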

How the data were processed

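Total RNA of 13 livers was hybridised to Affymetrix mouse gene arrays. Per the submitters' processing notes, the authors made the deposited log2 intensities by RMA with Affymetrix Expression Console 1.2; annotation version and genome build: not given in the sources used here. RMA gives arrays a common distribution, so a global change in RNA would not be seen, and there are no detection calls. Array medians were 6.22 to 6.31. Of 35556 probe sets, 21789 had 1 gene symbol, 1621 several and 12146 none. The brightest probe set per gene was used, giving 19938 genes without a filter. No member had a second probe set of its own. Groups were compared over all genes with limma 3.58.1 in R 4.3.3, with 11 residual degrees of freedom before moderation, tested on simulated data. No batch is named in the labels. The labels number the controls 1 to 7 and the STZ mice 29 to 42, so anything that followed these numbers cannot be told apart from the treatment. The arrays are labelled biological replicates, and their number limits the precision. Members and lists were chosen with earlier results of these data known. Named were all members and, per list, up to 4 passing genes of largest difference or the gene of smallest p. Reference genes chosen for their role or position were added. In the wider pathway list all 9 passing genes were named. In the Kupffer and hepatocyte lists not all passing genes were. Alternatives were trend and robust variance, array weights, the replicate number as a block, a brightness filter, an exact rank-sum test, testing all probe sets, the next probe set, median centring, quantile normalization, leaving out each array, and only STZ label numbers 29 to 32.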

Additional observations from a re-analysis of the deposited data

Results flagged for a closer look

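In 56 groups of arrays, from the members and 19 other genes of the text, 3 held an array far from the others by Dixon's criterion, which flags about 1 group in 20 by chance. Stra6l was 9.37 in STZ replicate 2, below the next STZ value of 9.83 and inside the control range. Scarb1 was 10.26 in control replicate 3, above the next control at 10.10 and below all STZ livers. Rgs5 was 8.55 in STZ replicate 1, above the next STZ liver at 7.94.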

How the results depend on the processing

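Lrat and Rdh11 kept their direction and their call in 23 of 23 alternatives, with adjusted p of 0.000588 to 0.0302 and 0.000587 to 0.0427. Leaving out 1 array moved Lrat between -0.51 and -0.42 and Rdh11 between -1.03 and -0.70. Cyp26a1 stayed positive throughout, and lost its call with trend and robust variance (1.26), when all probe sets were tested (1.26), in the exact rank-sum test (1.26) and with STZ label numbers 29 to 32 alone (1.20). Leaving out 1 array gave 1.02 to 1.44. Stra6l passed with array weights (0.38), quantile normalization (0.35) and among genes brighter than the median (0.34, fewer genes tested), and leaving out 1 array gave 0.30 to 0.43. Cyp26b1, which did not pass anywhere, changed sign with the replicate block (-0.0287) and lay between -0.0287 and 0.10 when 1 array was left out. The count of members higher was therefore 0 in the 4 settings in which Cyp26a1 lost its call, 2 in the 3 in which Stra6l passed, and 0 to 2 when 1 array was left out, with 2 lower in every setting. Of the other retinoid genes, 2 instead of 4 were higher with STZ label numbers 29 to 32, with all probe sets tested and with trend and robust variance, 1 was in the rank-sum test, and 2 to 5 when 1 array was left out (2 without STZ replicate 4). With the replicate number as a block 3 of them were lower, not 5. Same-numbered arrays of the groups deviated together with correlations of -0.09 to 0.19, over 0.1 in 2 of 6 pairs. Whether such arrays share more than a number cannot be told from this. Under the block 1256 of all genes passed, against 1819, and 1 of 6 STZ arrays correlated best with its own number. The rank-sum test called 1088 and all probe sets 1288. The cause of the lost calls was not tested. No value could be had from a second probe set of the members.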

Other observations

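Genes like Rdh11 and Cyp26a1 were looked up after their values had been seen. After removing each group's mean, the 3 genes most like Rdh11 over 13 arrays were Rfesd (Pearson r = 0.98), Sc5d (0.97) and Fdft1 (0.94). Sc5d and Fdft1 encode enzymes of cholesterol synthesis. Spearman's rho was 0.73, 0.75 and 0.60, and r without the 2 arrays farthest from the median was 0.89, 0.82 and 0.68. In all 3 genes, as in Rdh11, STZ replicate 2 was the lowest and STZ replicate 5 the highest of the STZ livers. Sc5d read 11.42 and 12.22 there and Fdft1 11.42 and 12.13. The 3 genes were picked as the highest of many coefficients with Rdh11, so these shared extremes follow from the choice and are no separate result. Sc5d was also lower between groups (-0.54 ± 0.09, adjusted p = 0.00136 in limma), while Fdft1 was not past the test (-0.07 ± 0.09). The genes most like Cyp26a1 were Atg5 (r = 0.92), Anapc16 (0.86) and Rnf114 (0.82), and none of these passed between groups.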
